A study of Mus musculus with 4 samples.

Results

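Type I interferon response genes were read in mouse dorsal skin over 4 Illumina bead arrays. The list held 39 genes, chosen by symbol: every probe whose symbol in the platform's annotation was that of a listed gene was taken, which gave 67 probes. Of the 39 genes, 37 had a probe, 2 (Herc6 and Ifi44) had none under that symbol, and 4 (Ifit1, Ifih1, Xaf1 and Ifnar1) had no probe above the detection limit on any array. The other 33 were above the limit on at least 1 array, among 12729 such genes in all, and 30 of them on all 4 arrays. Of the remaining 3, Mx1 and Parp9 were above it on 3 arrays. Rtp4 was above it in GFP skin alone, so it could only be seen as higher there.

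The skin came from C57BL/6J mice aged 8 to 12 weeks injected with a mini-circle, a small circular DNA that expresses either GFP or the cytokine IL-17A. Material from each was profiled without and with an agent the labels name IMQ, the usual abbreviation of imiquimod, an agonist of the nucleic acid receptor TLR7. No dose, route or schedule was given, and the cells that express the injected DNA are not named. The 4 groups are called GFP, IL-17A, GFP/IMQ and IL-17A/IMQ skin after mini-circle and agent, and each was 1 array of RNA pooled from 6 mice. All animals carried a mini-circle, so no group shows uninjected skin. With 1 array a group there was no replicate and no test, and every difference below describes those pools. The number of arrays limits the precision.

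Type I interferons bind a receptor made of IFNAR1 and IFNAR2. The kinases JAK1 and TYK2 then activate STAT2, which joins IRF9 in a complex that binds the interferon-stimulated response element (ISRE) in the promoters of target genes. Targets include sensors of viral nucleic acid, effectors that block viral growth, and IRF7 and USP18, which amplify and dampen the response. In skin, keratinocytes, macrophages and dendritic cells can all respond, and TLR7 agonists act mainly on plasmacytoid dendritic cells and other immune cells. Several listed genes, among them Irf1, Irf8 and the Gbp genes, are also induced by interferon gamma. C57BL/6 mice carry a defective Mx1 allele.

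The promoters of 6 genes are shown because they span the patterns found. Isg15, Ifit3 and Rsad2 were lower with either treatment alone, and Gbp2 was near level on its brightest probe. Irf7 was highest with both treatments, and Irf1 went its own way. Each promoter window runs from 250 bases before to 50 after a RefSeq transcript start on build GRCm38.p6, 5′ to 3′ on the gene's strand. Capitals mark the ISRE core, GAAA and GAAA with any 2 bases between them or, on the other strand, TTTC and TTTC so spaced, and in Irf1 the palindromic gamma-activated site (GAS), TTCNNNGAA. The windows are chr4:156200769-156201068 on the minus strand for Isg15, chr19:34583279-34583578 on the plus strand for Ifit3, chr12:26456403-26456702 on the minus strand for Rsad2, chr3:142620413-142620712 on the plus strand for Gbp2, chr7:141266375-141266674 on the minus strand for Irf7 and chr11:53769764-53770063 on the plus strand for the first start of Irf1.
Isg15: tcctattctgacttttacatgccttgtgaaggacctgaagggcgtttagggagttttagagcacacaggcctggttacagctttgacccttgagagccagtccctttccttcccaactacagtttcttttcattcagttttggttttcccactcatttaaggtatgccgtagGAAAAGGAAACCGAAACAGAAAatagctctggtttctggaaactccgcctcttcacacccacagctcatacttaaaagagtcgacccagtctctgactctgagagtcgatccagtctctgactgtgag
Ifit3: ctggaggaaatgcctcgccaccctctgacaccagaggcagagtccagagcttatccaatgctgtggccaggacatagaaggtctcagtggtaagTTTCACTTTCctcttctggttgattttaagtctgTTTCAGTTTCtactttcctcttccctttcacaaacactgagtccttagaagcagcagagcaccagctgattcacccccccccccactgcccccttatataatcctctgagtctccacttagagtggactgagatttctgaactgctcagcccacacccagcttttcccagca
Rsad2: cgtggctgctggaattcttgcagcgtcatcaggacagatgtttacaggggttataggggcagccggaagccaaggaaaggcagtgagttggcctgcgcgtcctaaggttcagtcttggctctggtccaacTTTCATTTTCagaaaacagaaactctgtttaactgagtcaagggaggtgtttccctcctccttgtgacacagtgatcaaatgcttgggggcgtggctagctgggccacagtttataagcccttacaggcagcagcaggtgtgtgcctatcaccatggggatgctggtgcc
Gbp2: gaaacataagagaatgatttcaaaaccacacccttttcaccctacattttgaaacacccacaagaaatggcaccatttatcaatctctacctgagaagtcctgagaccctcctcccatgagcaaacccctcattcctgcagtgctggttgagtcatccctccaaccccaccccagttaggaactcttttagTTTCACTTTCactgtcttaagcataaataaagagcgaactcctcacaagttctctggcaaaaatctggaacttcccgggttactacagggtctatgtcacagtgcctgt
Irf7: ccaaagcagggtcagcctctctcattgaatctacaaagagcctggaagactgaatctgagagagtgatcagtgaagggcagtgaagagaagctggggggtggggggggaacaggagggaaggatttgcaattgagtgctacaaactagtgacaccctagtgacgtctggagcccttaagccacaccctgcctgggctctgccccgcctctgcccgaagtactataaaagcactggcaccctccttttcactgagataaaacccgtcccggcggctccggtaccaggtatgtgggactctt
Irf1: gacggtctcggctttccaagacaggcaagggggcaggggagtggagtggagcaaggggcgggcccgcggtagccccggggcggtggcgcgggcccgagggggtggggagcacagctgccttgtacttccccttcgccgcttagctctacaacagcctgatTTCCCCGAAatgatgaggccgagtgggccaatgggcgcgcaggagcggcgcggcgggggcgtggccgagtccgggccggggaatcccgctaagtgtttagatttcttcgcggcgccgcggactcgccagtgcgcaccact

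In Isg15 3 overlapping ISRE cores began 78, 72 and 66 bases before the start. Ifit3 held 2, at 156 and 122 bases before it, Rsad2 1 at 120 bases and Gbp2 1 at 59 bases. No ISRE core was in the Irf7 window, and the GAS of Irf1 lay 90 bases before the start. RefSeq promoters were found for 30 of the 39 genes, as 36 windows. An ISRE core was in 14 of the 36 (38.9%), against 3.44% of 32851 mouse promoter windows of 300 bases, and a GAS in 9 (25%), against 8.30%. In 3 member windows both motifs occurred, and in 1, that of Ifitm3, they overlapped. A match describes letters in a window and does not show that a factor bound it.

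Levels are given as log2 of the background-corrected, quantile-normalized signal, which includes an offset of 50 that shrinks differences of dim genes, and a difference is that between 2 such levels. A difference was counted when 2 arrays were at least 1.5-fold apart and the brighter one was above its detection limit. GFP skin had the highest level of 28 of the 33 detected genes, against 28.5% of all detected genes. IL-17A skin had the highest level of 3 (20.8% of all genes), GFP/IMQ skin of 1 (23.1%) and IL-17A/IMQ skin of 1 (27.6%). The lowest level fell on IL-17A skin for 18 and on GFP/IMQ skin for 12, where 17.9% and 24% of all genes had theirs. Only 3 were lowest in IL-17A/IMQ skin and 0 in GFP skin, against 27.1% and 31% of all genes. Among the 30 genes above the limit on all 4 arrays, 26 were highest in GFP skin.

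**Figure D1:**
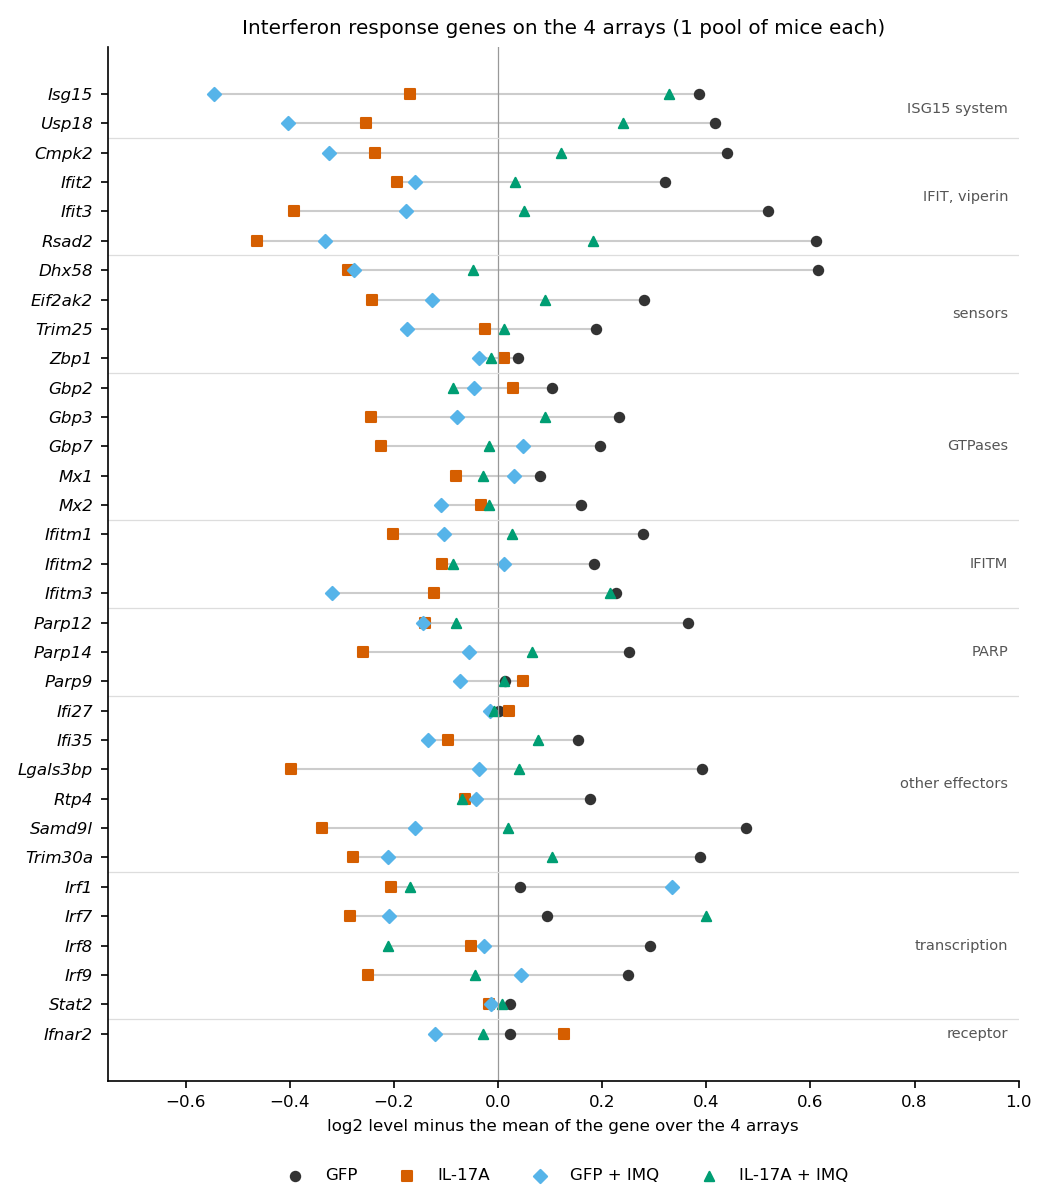
Level of each of the 33 detected interferon genes on the 4 arrays, as log2 level minus that gene's mean over the arrays (horizontal axis), with genes in rows grouped by role; each symbol is 1 array of pooled skin. Black circles (GFP) lie farthest right for 28 genes, and green triangles (IL-17A/IMQ) lie in many rows between them and the orange squares (IL-17A) and blue diamonds (GFP/IMQ).

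The first comparison sets the IL-17A array against the GFP array, both without IMQ. Interferon genes stood lower with IL-17A: 8 of 33 were at least 1.5-fold lower and 0 higher, where 3.19% of all detected genes were lower and 2.13% higher. Their median difference was -0.42, against 0.01 over all genes, and 30 of the 33 differences were below 0, against 47.3% of all genes. The 8 were Rsad2 (2.11-fold), Ifit3 (1.88-fold), Dhx58 (1.87-fold), Samd9l (1.76-fold), Lgals3bp (1.73-fold), Cmpk2 (1.60-fold), Usp18 (1.59-fold) and Trim30a (1.59-fold). Rsad2 alone was past 2-fold, where 0.99% of all genes were lower.

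The GFP/IMQ and GFP arrays show IMQ without added IL-17A. Again 8 of the 33 were lower by at least 1.5-fold and 0 higher, against 2.06% and 1.55% of all genes. The median was -0.31 against 0.00 over all genes, and 32 of 33 differences were below 0, against 49.4% of all genes. The 8 were Rsad2 (1.92-fold), Isg15 (1.91-fold), Dhx58 (1.85-fold), Usp18 (1.77-fold), Cmpk2 (1.70-fold), Ifit3 (1.62-fold), Samd9l (1.55-fold) and Trim30a (1.51-fold), and 0 were past 2-fold, where 0.283% of all genes were lower. Irf1 was the 1 gene with a difference above 0, at 0.29. Both comparisons use the same GFP array.

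The IL-17A/IMQ and GFP/IMQ arrays show IL-17A under IMQ and leave out the untreated GFP pool. Now 3 of the 33 were higher with IL-17A by at least 1.5-fold and 0 lower, against 2.52% and 1.87% of all genes: Isg15 (1.83-fold), Usp18 (1.56-fold) and Irf7 (1.53-fold). The median was 0.12 against 0.00 over all genes, with 8 of 33 differences below 0, against 49.2% of all genes. Among IL-17A skins, the one with IMQ had 2 genes at least 1.5-fold higher, Irf7 (1.60-fold) and Rsad2 (1.56-fold), and 0 lower, against 0.966% and 0.212% of all genes. That median was 0.21, against 0.00 over all genes, and 7 of 33 differences were below 0, against 50.9% of all genes. The last 2 comparisons share the array of IL-17A/IMQ skin. None (0) of the 33 genes was past 2-fold in either, where 1.06% and 0.165% of all genes were higher and 0.283% and 0.0786% lower. The IL-17A difference under IMQ minus that without it was above 0 for 30 of the 33 genes, against 48.9% of all genes, and at least 1 on the log2 scale for 6, against 0.683%. Its median was 0.57, against -0.01 over all genes. Skin with both treatments was below GFP skin for 32 of the 33, against 48.9% of all genes, with a median difference of -0.19 against 0.01.

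**Figure D2:**
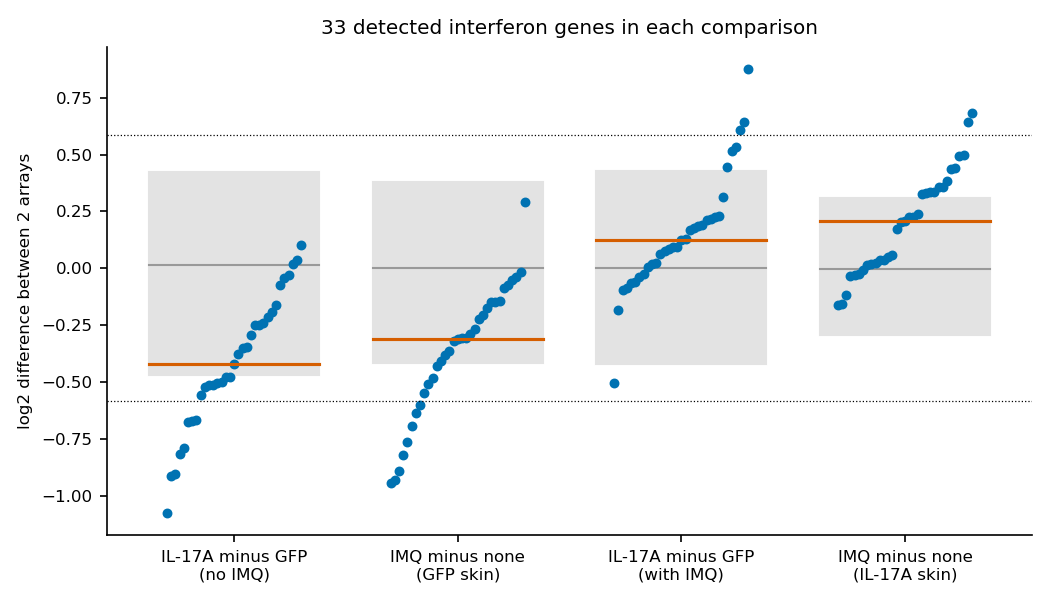
Log2 differences of the 33 detected interferon genes (blue points, sorted) in each of the 4 comparisons, with their median (orange line), the median of all 12729 detected genes (grey line), the range from percentile 5 to percentile 95 of all genes (grey box) and the 1.5-fold limits (dotted lines). The orange medians are -0.42, -0.31, 0.12 and 0.21 from left to right.

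Isg15 encodes a ubiquitin-like protein that is attached to other proteins during the interferon response, and Usp18 the protease that removes it and also blocks signalling at IFNAR2. The level of Isg15 was 9.14 in GFP skin, 8.58 in IL-17A skin, 8.20 in GFP/IMQ skin and 9.08 in IL-17A/IMQ skin, from deposited signals of 516, 339, 210 and 468. Skin with neither or with both treatments was thus high, and skin with 1 treatment low. In the authors' normalized log2 values the same probe read 9.01, 8.39, 7.97 and 8.96. Its 1.91-fold difference for IMQ in GFP skin and its 1.83-fold difference for IL-17A under IMQ ran in opposite directions, and the IL-17A difference under IMQ exceeded that without it by 1.43 on the log2 scale. For Usp18 the levels were 8.97, 8.30, 8.15 and 8.79 in the same order. A second Usp18 probe read 7.17, 6.78, 6.80 and 6.87, so it was also highest in GFP skin but showed little of the higher level with both treatments.

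Ifit2 and Ifit3 encode partners of a complex that binds viral RNA, Rsad2 encodes viperin, an enzyme that makes an antiviral nucleotide, and Cmpk2 a nucleotide kinase. Rsad2 had the widest range of the 33 genes, 2.11-fold, with levels of 8.93 in GFP, 7.85 in IL-17A, 7.98 in GFP/IMQ and 8.50 in IL-17A/IMQ skin and deposited signals of 438, 176, 172 and 290. It was lowest with IL-17A alone, and skin with both treatments lay between GFP skin and the other two. The authors' values for it were 8.78, 7.53, 7.70 and 8.31. Cmpk2 had levels of 7.58, 6.90, 6.81 and 7.26 in that order, and Ifit3 10.44, 9.53, 9.75 and 9.97. A second Ifit3 probe gave -0.89 for IL-17A without IMQ, close to the -0.91 of the first, but -0.13 against 0.23 under IMQ. Ifit2 had levels of 7.44, 6.93, 6.96 and 7.16 on its brightest probe and 7.39, 6.85, 6.74 and 6.64 on a second one. Both were highest in GFP skin, and they disagreed on skin with both treatments, the lowest array on the second probe. The only Ifit1 probe had signals from -8.95 to 0.84, below every limit, so its level is not known here.

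**Figure D3:**
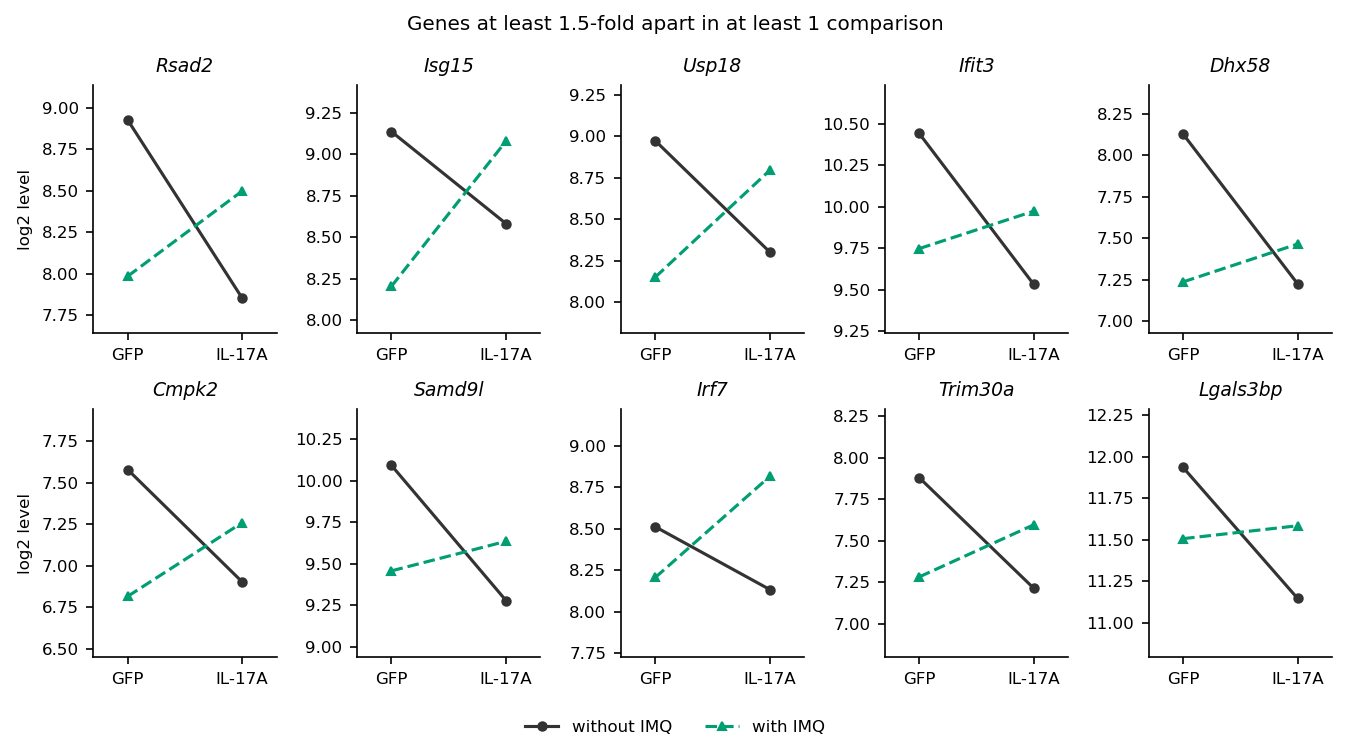
Log2 levels of the 10 interferon genes that were at least 1.5-fold apart in at least 1 comparison, in GFP and IL-17A skin without IMQ (black, solid) and with IMQ (green, dashed), ordered by the difference between both IL-17A differences; each point is 1 array and every panel spans the same log2 range. The black lines go down in all 10 panels and the green lines go up, least for Lgals3bp (0.08).

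Among sensors, Dhx58, which encodes the RNA-binding regulator LGP2, had levels of 8.13 in GFP, 7.22 in IL-17A, 7.24 in GFP/IMQ and 7.46 in IL-17A/IMQ skin. GFP skin stood alone as high, and its 2 other detected probes also had their highest level there. Eif2ak2, the RNA-activated kinase PKR, ranged over 1.44-fold and Trim25, a ubiquitin ligase of the RNA sensing pathway, over 1.29-fold, both highest in GFP skin. The brightest probe of Zbp1, a sensor of Z-form nucleic acid, was near level, from 7.16 to 7.23. A second Zbp1 probe was not, with 6.97 in GFP, 6.41 in IL-17A, 6.38 in GFP/IMQ and 6.50 in IL-17A/IMQ skin. The Ifih1 probe, for the RNA sensor MDA5, was not above the limit on any array.

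Transcription factors differed from one another. Irf7, which drives further interferon production, had levels of 8.51 in GFP, 8.13 in IL-17A, 8.21 in GFP/IMQ and 8.82 in IL-17A/IMQ skin, and was the 1 gene of the 33 with its highest level in skin given both treatments. Its authors' values were 8.33, 7.88, 7.96 and 8.69. Irf9, the DNA-binding part of the interferon-activated complex, had levels of 9.31, 8.81, 9.10 and 9.01 in the same order, and Stat2, its partner, 7.39, 7.35, 7.35 and 7.37. Stat2 was thus level within 1.03-fold, while Irf9 was 1.41-fold apart between GFP and IL-17A skin. A second Irf9 probe read 7.85 in GFP, 7.35 in IL-17A, 7.89 in GFP/IMQ and 7.53 in IL-17A/IMQ skin. That probe was thus highest in GFP/IMQ skin. Irf1 was highest in GFP/IMQ skin, at 10.21 against 9.67 to 9.91 on the other arrays, and it was lower in IL-17A skin under IMQ by 0.50, the lowest difference of the 33 genes there. Irf8, a factor of myeloid cells, was lowest with both treatments, at 6.62 against 6.78 to 7.13.

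All 5 antiviral GTPase genes were below GFP skin with either treatment alone, with median differences of -0.19 for IL-17A and -0.15 for IMQ. None (0) of the 5 was 1.5-fold apart in any comparison, where between 0.212% and 3.19% of all genes passed that fold in a given direction. Gbp3 ranged over 1.39-fold, Gbp7 over 1.34-fold, Mx2 over 1.2-fold, and Gbp2 over 1.14-fold, and all 5 were highest in GFP skin. A second Gbp2 probe was less level, with 6.69 in GFP, 6.34 in IL-17A, 6.50 in GFP/IMQ and 6.32 in IL-17A/IMQ skin. Mx1 was at least 1.09-fold higher in GFP than in IL-17A skin, where it was not above the limit. Members of the Gbp and Ifitm families resemble each other in sequence, and probe sequences were not used here, so a probe may also read a relative.

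The IFITM proteins sit in membranes and restrict virus entry. Ifitm3 had levels of 13.59 in GFP, 13.24 in IL-17A, 13.04 in GFP/IMQ and 13.57 in IL-17A/IMQ skin, so skin with neither and with both treatments was nearly level. Ifitm2 had levels of 12.99, 12.70, 12.81 and 12.72 in the same order, with no such return. Ifitm1 had levels of 13.52, 13.05, 13.14 and 13.27 on its brightest probe. All other detected Ifitm1 probes were dimmer and ran the other way, higher in IL-17A than in GFP skin by 0.54, 0.18, 0.11 and 0.08. The first of these had levels of 9.37 in GFP and 9.90 in IL-17A skin, then 9.62 and 10.46 with IMQ. The direction of Ifitm1 thus depends on the probe. The mean over its detected probes was 0.09 higher in IL-17A than in GFP skin, against -0.48 on the brightest.

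Other effectors were mixed. Lgals3bp, a secreted glycoprotein, had levels of 11.94 in GFP, 11.15 in IL-17A, 11.51 in GFP/IMQ and 11.58 in IL-17A/IMQ skin. Samd9l, which restricts virus growth and cell division, had 10.09, 9.28, 9.46 and 9.63, and Trim30a, a mouse TRIM family gene, 7.88, 7.21, 7.28 and 7.59. All 3 were highest in GFP and lowest in IL-17A skin. The ADP-ribosyltransferase genes Parp14 and Parp12 ranged over 1.43-fold and 1.42-fold, and Ifi35 over 1.22-fold. Rtp4 was at least 1.13-fold higher in GFP than in GFP/IMQ skin, and Parp9 at least 1.04-fold, since neither was above the limit in the latter. Ifi27 was level, within 1.03-fold.

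Of the receptor genes, Ifnar2 had levels of 6.77 in GFP, 6.87 in IL-17A, 6.63 in GFP/IMQ and 6.72 in IL-17A/IMQ skin, a range of 1.19-fold. It was 1 of 3 detected genes, with Parp9 and Ifi27, whose highest level was in IL-17A skin. The single Ifnar1 probe had signals from -7.22 to 0.83 and was below the limit on all arrays.

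Several probes were detected for 16 of the 33 genes. For 15 of the 16 all detected probes shared a sign between the IL-17A and GFP arrays, the exception being Ifitm1. The number was 12 for IMQ in GFP skin and 11 in each of the comparisons that use the skin with both treatments, where differences were smaller.

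**Figure D4:**
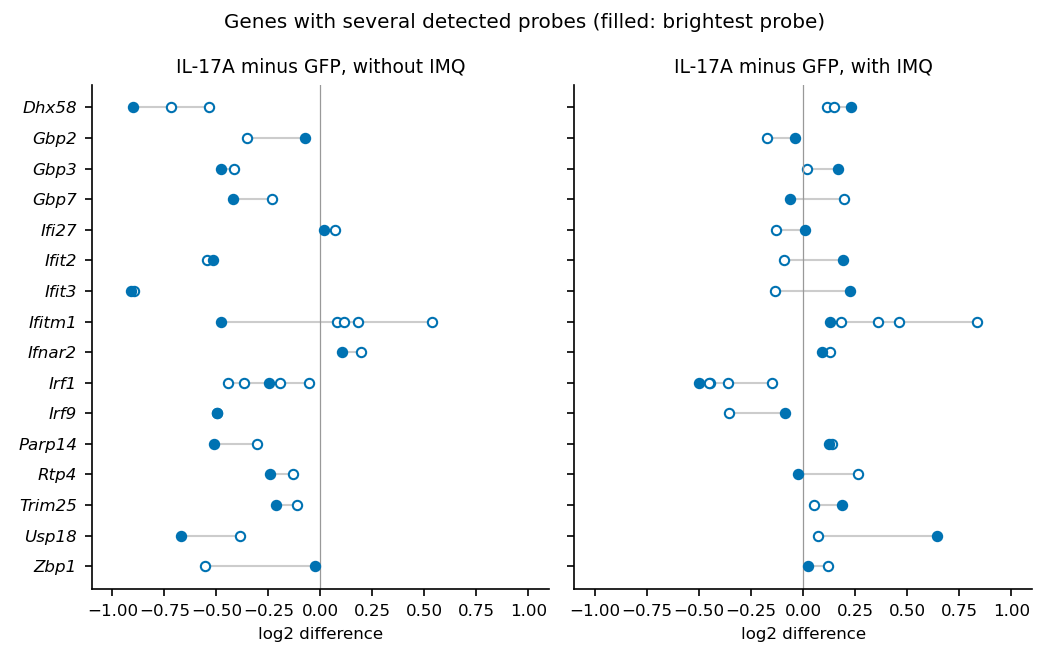
Log2 difference between IL-17A and GFP skin without IMQ (left) and with IMQ (right) for each detected probe of the 16 interferon genes with several detected probes; filled points are the brightest probe, which represents the gene, and open points the others. On the left all probes lie on one side of 0 for every gene but Ifitm1, and on the right the Usp18 probes lie at 0.64 and 0.07.

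The lower level with either treatment alone was shared by interferon-induced genes outside the 39. Of 56 such genes 37 were detected. Of these, 13 were at least 1.5-fold lower and 0 higher in IL-17A than in GFP skin, against 3.19% and 2.13% of all genes. The median of the 37 was -0.44. With IMQ in GFP skin 12 were lower and 0 higher, against 2.06% and 1.55% of all genes, with a median of -0.35. Under IMQ, 2 (5.41%) were higher and 1 (2.7%) lower in IL-17A skin, against 2.52% and 1.87% of all genes. The median there was 0.01. IMQ in IL-17A skin gave 3 higher and 0 lower, against 0.966% and 0.212% of all genes, with a median of 0.08. Bst2, which tethers virus particles to the cell, had levels of 9.51 in GFP, 8.28 in IL-17A, 8.18 in GFP/IMQ and 9.30 in IL-17A/IMQ skin, so it was low with 1 treatment and high with neither or both. Oas1g, of the oligoadenylate synthetase family, had 9.96, 8.67, 8.88 and 9.26. Ifi205, a DNA-binding PYHIN family gene, was 2.86-fold lower in IL-17A than in GFP skin and 1.59-fold lower under IMQ.

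Genes that sense nucleic acids upstream of interferon were lower in part. Of 23 listed, 15 were detected, and 3 were at least 1.5-fold lower in IL-17A than in GFP skin, against 3.19% of all genes. They were Unc93b1 (2.38-fold), which carries Toll-like receptors to endosomes, Tlr7 itself (2.02-fold) and the transcription factor gene Irf5 (1.58-fold). IMQ in GFP skin gave 2 lower, Unc93b1 (1.82-fold) and Tlr7 (1.69-fold), against 2.06% of all genes. Tlr7 had levels of 8.24 in GFP, 7.23 in IL-17A, 7.48 in GFP/IMQ and 7.14 in IL-17A/IMQ skin, with no return in skin given both treatments. Under IMQ 0 of the 15 were 1.5-fold apart between IL-17A and GFP skin, where 2.52% of all genes were higher and 1.87% lower. IMQ in IL-17A skin also gave 0, where 0.966% and 0.212% of all genes were. With shares this low, 0 of 15 does not set the list apart.

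Interferon genes themselves were hardly detected. Of 34 probes for 19 interferon genes, 24 were never above the limit, and the highest signal was 121. Ifnb1 was below the limit on all arrays. Probes above it on all 4 belonged to Ifna1, Ifna6 and Ifnab, with differences of at most 0.42. In the 4 comparisons 0 of the 7 detected interferon genes were 1.5-fold apart. Between 0.212% and 3.19% of all genes passed that fold in a given direction. In receptor signalling, 13 genes were detected. Jak1 had levels of 7.41 in GFP, 7.06 in IL-17A, 7.30 in GFP/IMQ and 7.48 in IL-17A/IMQ skin, while Jak2 stayed between 8.51 and 8.60 and Tyk2 between 8.36 and 8.73. Socs3, a feedback inhibitor of cytokine receptors, was 1.87-fold higher in IL-17A skin without IMQ and 2.03-fold higher with it. Ptpn6 (1.53-fold) and Il10rb (1.5-fold) were lower in IL-17A skin without IMQ.

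Markers of cell types moved with these differences, and their part in them was not tested. In bulk skin, fewer cells of a type and less RNA per cell cannot be told apart. Of 12 macrophage markers 10 were detected, and 9 of the 10 were at least 1.5-fold lower in IL-17A than in GFP skin. With IMQ in GFP skin 8 were lower, and 6 were lower in IL-17A skin under IMQ. The shares of all genes lower were 3.19%, 2.06% and 1.87%. Summed on a linear scale, the level of the macrophage markers came to 24800 in GFP skin, 9784 in IL-17A skin, 15059 in GFP/IMQ skin and 9630 in IL-17A/IMQ skin. Between skin with both treatments and skin with IL-17A alone, 0 of the 10 were 1.5-fold apart. There 0.966% of all genes were higher and 0.212% lower. Siglec1, on the macrophage list, is itself induced by interferon, and it was 3.84-fold lower in IL-17A than in GFP skin. Of 6 dermal fibroblast markers, 5 were at least 1.5-fold lower in IL-17A than in GFP skin and 3 with IMQ in GFP skin, and their summed level was 26366, 18168, 20689 and 20437 in the same order.

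Plasmacytoid dendritic cell markers were at or near the limit: Ccr9 and Klk1 were below it on all arrays, and of 3 Siglech probes 1 passed it on 1 array, at 13.4. The rest of that list, such as Cox6a2, Ly6d and Tcf4, is also expressed by other cells of skin and muscle, and its summed level was 18334 to 18761. Hair shaft and root sheath genes had 10 of 10 detected members at least 1.5-fold higher in all 4 comparisons. Of all genes 2.13% were that much higher for IL-17A without IMQ and 1.55% for IMQ in GFP skin. For IL-17A under IMQ 2.52% were, and for IMQ in IL-17A skin 0.966%. None (0) of the 10 hair genes was above the limit in GFP skin, and their summed level was 19691 in IL-17A, 9502 in GFP/IMQ and 34814 in IL-17A/IMQ skin. Neutrophil markers summed to 2026, 14433, 2212 and 34609, most of it from S100a8 and S100a9, which keratinocytes also express; the other 5 detected markers summed to 405, 809, 430 and 1149. Keratinocyte markers were high on every array: the 5 detected ones, among them Krt5, Krt1 and Lor, summed to 120515 to 130019. The Il17a probe had signals of 11.1, 7.98, 11.01 and 14.4, above the limit of its array in skin with both treatments alone, and whether it detects the mini-circle's transcript is not known.

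**Figure D5:**
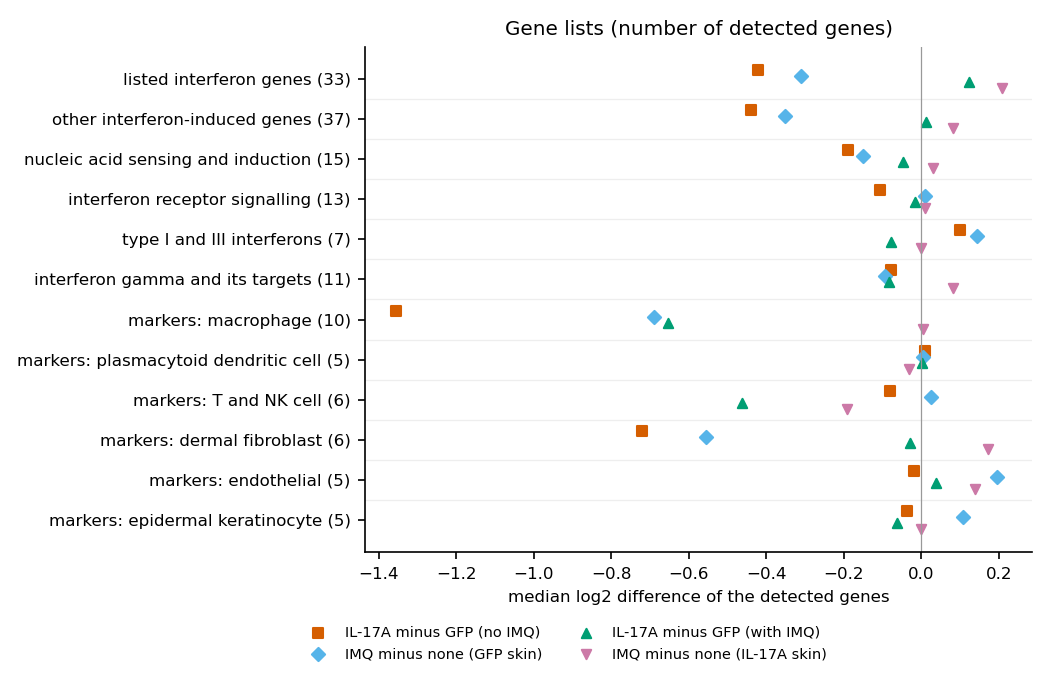
Median log2 difference (horizontal axis) of the detected genes of each list in the 4 comparisons; the number of detected genes is in parentheses and each symbol is 1 comparison between 2 arrays. The row of the 33 genes runs from -0.42 and -0.31 for either treatment alone to 0.12 and 0.21 in the comparisons that use skin with both, while the macrophage row runs from -1.36 to 0.00.

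Medians were also taken by the letters near the start. The 11 detected genes with an ISRE core in a window had a median of -0.48 for IL-17A without IMQ and the 13 without one -0.48. For IMQ in GFP skin the medians were -0.41 and -0.36, for IL-17A under IMQ 0.22 and 0.13, and for IMQ in IL-17A skin 0.34 and 0.20.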

How the data were processed

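RNA from pooled dorsal skin was hybridized as biotinylated cRNA, per the labels' protocols. The deposited linear intensity values, 45281 per array, had a background subtracted by a program not given in the sources used here: between 32.3% and 33.7% of an array's probes read below 0. The authors' second deposited table holds normalized log2 values, with the method not given in the sources used here. Intensities were corrected with limma 3.58.1 (R 4.3.3; normexp, offset 50), quantile-normalized and put on a log2 scale; counts were made in Python 3.11.15 (pandas 2.3.3, numpy 2.4.6). Values below 0 were mirrored at 0 to describe noise, and the detection limit, 11.6 to 12.7, is the signal that a share of 0.01 of that noise passes; 45.2% to 45.8% of probes passed it. In the platform annotation 34885 probes had exactly 1 symbol and were used by name; 18 had several, 10378 had none. A gene was represented by its brightest detected probe. The procedure was tested on simulated data. The changes planted there were larger than 1.5-fold and in brighter genes. It therefore does not show how well changes of 1.5-fold, or those of dim genes, are found.

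The members, lists, thresholds and alternatives were chosen with earlier results of these data known. Values on every array are given for members at least 1.5-fold apart in a comparison, for Irf9, Stat2, Ifnar2 and the Ifitm genes, and from the other lists for a few genes with the largest differences, interferon genes, Tlr7 and Jak genes. Second probes and the groups' sums were added after the values were seen. Promoters came from RefSeq (GRCm38.p6); the array files name no build. No test was possible with 1 array a group.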

Additional observations from a re-analysis of the deposited data

Results flagged for a closer look

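With 1 array a group, a gene of the lists used here is given when the IL-17A difference without IMQ and that with IMQ, or the IMQ difference in GFP and in IL-17A skin, ran in opposite directions by at least 1.2-fold each and one of them by at least 1.5-fold. The value given is the IL-17A difference with IMQ minus that without, on the log2 scale, which equals the IMQ difference in IL-17A skin minus that in GFP skin. None of these was tested. Both pairs of differences opposed each other for Rsad2 (1.59), Isg15 (1.43), Usp18 (1.32), Cmpk2 (1.12), Irf7 (0.99) and Trim30a (0.98), and among other interferon-induced genes for Bst2 (2.35), Oasl2 (1.78), Oas1g (1.66) and Ifi27l2a (1.00). For Ifit3 (1.14) and Samd9l (0.99), for the interferon-induced genes Ifi47 (1.07) and Phf11d (1.01) and for the collagen gene Col1a2 (1.02), only the IMQ differences did so at that size. Of the 33 detected interferon genes 6 had a value of at least 1, against 0.683% of all genes, and 30 a value above 0, against 48.9% of all genes; their median was 0.57, against -0.01 over all genes. Each value uses all 4 arrays once.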

How the results depend on the processing

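No paired analysis was possible because each group has 1 array, and no array could be left out of its own group. Alternatives were an offset of 16, no background correction, median scaling, the authors' values, the mean of a gene's probes, detection on all 4 arrays and a 2-fold threshold; normalization without the GFP array, for the comparisons that do not use it, was added after seeing the data. The 5 medians kept their direction under the first 6, and the 2 that could be had without the GFP array did too. IMQ in IL-17A skin had a median of 0.34 with no background correction. That setting gave 18 genes lower for IL-17A without IMQ, 13 lower for IMQ in GFP skin, 5 higher for IL-17A under IMQ and 5 higher for IMQ in IL-17A skin. IL-17A under IMQ also had 5 higher in the authors' values. The share of all genes past 1.5-fold is not given for these settings, so their counts cannot be set against the main ones. At 2-fold 1 gene was lower for IL-17A without IMQ, 0 were lower for IMQ in GFP skin and 0 were higher in each of the other two comparisons. Of 21 differences of single genes past 1.5-fold, 21 kept their direction and 19 stayed past 1.5-fold under every alternative to the threshold that gave them a value; averaging probes put 2 under it, both of Usp18. Genes near the detection limit, such as Mx1, Rtp4 and Parp9, are compressed by the offset.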

Other observations

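Of 14 genes for interferon gamma and its targets, 11 were detected, and Ifng, Cxcl11 and Nos2 were not above the limit on any array. The medians were -0.08 for IL-17A without IMQ, -0.09 for IMQ in GFP skin, -0.08 for IL-17A under IMQ and 0.08 for IMQ in IL-17A skin, and 1 gene was past 1.5-fold in any of them. That gene was Ido1, which encodes a tryptophan-degrading enzyme: it was at least 1.52-fold higher in IL-17A than in GFP skin under IMQ, being below the limit in the latter. Of all genes 2.52% were at least 1.5-fold higher in that comparison, and 1 gene of 11 is too few to set the list apart. The immunoproteasome genes Psmb8 and Psmb9 had differences of -0.55 and -0.45 for IL-17A without IMQ, and of -0.26 and -0.07 under IMQ. T and NK cells are the main makers of interferon gamma. Of their markers 2 of 6 detected genes were at least 1.5-fold lower in IL-17A than in GFP skin under IMQ, against 1.87% of all genes. They were Cd3g and Cd3d, with differences of -0.82 and -0.63. In each of the other 3 comparisons 0 of 6 were past that fold. Between 0.212% and 3.19% of all genes passed it there in a given direction.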
